A study of Homo sapiens with 8 samples.

Results

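The genes TET1, TET3, UHRF1 and MBD1 encode proteins that oxidise, help to copy or read 5-methylcytosine, the DNA mark that decitabine depletes. Their transcripts were examined for changes in N6-methyladenosine (m6A), a methyl mark on RNA, after HL-60 cells were treated with decitabine. The members were all features of the deposited table whose gene name was one of these 4 symbols. They came to 7 of the 4626 listed features: 1 in TET1, 3 in TET3, 2 in UHRF1 and 1 in MBD1. A feature is a stretch of transcript, 50 nt wide for all 7, for which the authors gave a log ratio and a p-value.

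HL-60 is an established human promyelocytic leukaemia cell line, and all cells carried the genotype labelled WT. The treated cells received decitabine to 100 nM on 3 occasions, at the start and again at 24 hours and 48 hours, the others received DMSO, its vehicle, and RNA of both was taken at 72 hours. Each treatment had 2 replicates, described in the labels only as duplicates. Each replicate number had 1 m6A immunoprecipitate and 1 input library, 8 libraries in all. The titles do not say whether the replicates were separate cultures, or whether libraries of the same number shared a culture. The comparison asks in which transcripts the m6A signal differed between decitabine and DMSO. The table gives a single ratio per feature over the libraries of both treatments and no value per library. The replicate spread and depth behind each value here are therefore unknown. It does not state which treatment is the numerator. Because it is named for decitabine, ratios above 1 (positive on the log scale) probably stand for more signal with decitabine, and features are called positive or negative on that reading. No source used here says how the ratio was corrected for input, so a change in m6A per transcript and a change in transcript level cannot be told apart. A table of ratios shows no expression level, so the cell line's markers could not be checked by level; of 6 myeloid markers 1 (CSF3R) had a listed feature, and of 4 markers of other cell types 0 did.

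Methylation of cytosine at CpG sites is copied to new DNA by DNMT1, which UHRF1 brings to half-methylated CpG sites after replication. Decitabine is built into DNA and traps DNMT1 there, so that methylation is lost as cells divide. TET enzymes oxidise 5-methylcytosine as a step towards its removal. Some proteins with a methyl-CpG binding domain, MBD1 among them, attach repressive partners to methylated DNA. In RNA, m6A is placed by the METTL3 and METTL14 complex, is commonly found in long exons and near stop codons, and can change the stability and translation of a transcript.

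Listed features of these 4 genes ran in both directions, and none reached 10-fold. There were 4 positive and 3 negative member features in the authors' deposited table, so 57.1% were positive, against 56.3% of all listed features. The members' share was close to that of all listed features. Among listed features whose fold, like every member's, was not a whole multiple of 0.5, 45.2% were positive. The difference from that share was not tested. The members' folds in the authors' deposited table, given as the larger over the smaller treatment, ran from 2.08 to 5.68. Their median was 4.20, against a median of 5.17 over all listed features. A ratio of at least 10-fold was given for 0 of the 7 members and for 38.5% of all features in the authors' deposited table. Their median natural log ratio was 1.03 in the authors' deposited table, against 0.78 over all features and -0.62 over the features whose fold was not a whole multiple of 0.5, as no member's was. No listed feature had a log ratio within 0.50 of 0. The sign of each of these medians therefore follows which sign was in the majority, and their differences do not measure a shift. All 7 had a p-value of 0.001 or less in the authors' deposited table, as did 52.6% of all listed features. Nothing says whether these p-values were adjusted.

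**Figure D1:**
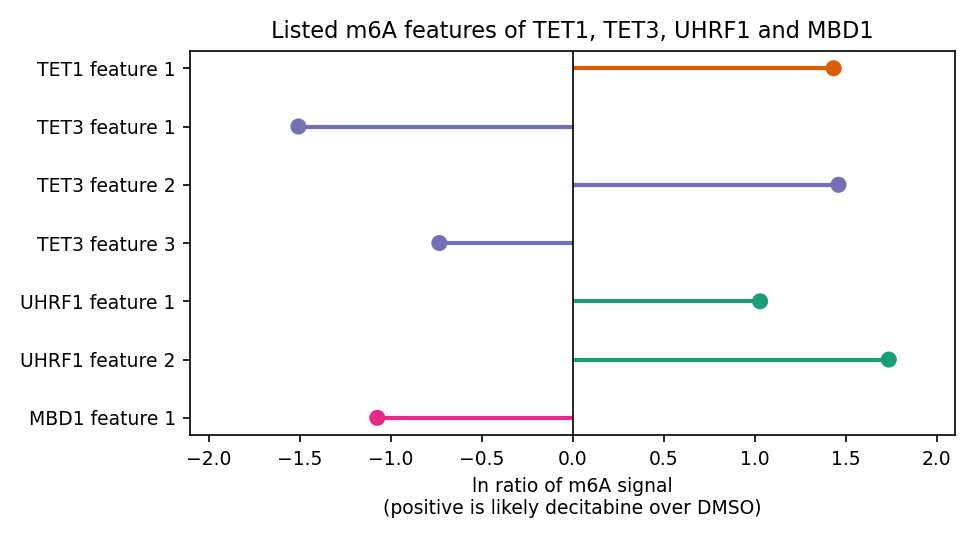
Natural log ratio of m6A signal (horizontal axis) for each of the 7 listed features of TET1, TET3, UHRF1 and MBD1, numbered from the 5′ end; each point is the authors' single value, with no error available. TET1 and both UHRF1 features lie right of 0, MBD1 lies left, and TET3 has features on both sides.

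Many of the largest ratios in the table were whole multiples of 0.5 as a fold (to a relative tolerance of 1e-08), which can occur when the smaller treatment is close to empty. Such ratios were 0 of the 7 member features and 30.6% of all listed features in the authors' deposited table. Once they were set aside, the median fold over the remaining features of either sign was 3.42 in the authors' deposited table, below the members' median, and 45.2% of them were positive. All 7 member folds were equal to a ratio of whole numbers with a denominator of at most 1000, to a relative tolerance of 1e-09, as were 93.4% of all features in the authors' deposited table. What those whole numbers count is not given, and no depth was taken from them.

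**Figure D2:**
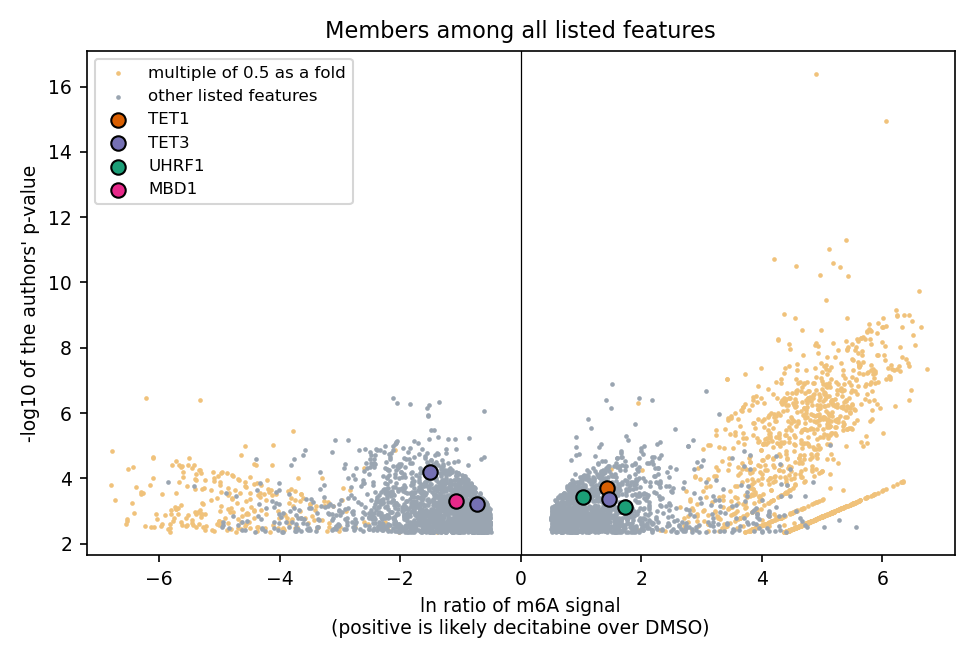
Natural log ratio (horizontal axis) against −log10 of the authors' p-value (vertical axis) for all listed features, with ratios that are multiples of 0.5 in yellow, other features in grey and the 7 member features as large coloured points. The members lie within the grey cloud near the centre, where some yellow points also lie. The 1 listed feature beyond a log ratio of 7 is not drawn.

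TET1, a 5-methylcytosine dioxygenase, had a single positive feature. It (ENSG00000138336.9) is placed by the authors' deposited table on hg38 chromosome 10, 68691300 to 68691349, plus strand, with a natural log ratio of 1.43, a fold of 4.20 and p = 0.00020. The feature lay 3138 nt before the 3′ end of the gene's RefSeq span of 134151 nt, 97.6% of the way along it. Among positive features in the authors' deposited table, 36.0% had a smaller fold, and 64.4% of the positive features did once multiples of 0.5 were set aside. A single listed feature is the usual case: 69.6% of the 3114 listed genes had 1.

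TET3, the TET1 relative that acts in the same oxidation pathway, had 3 features of both signs (ENSG00000187605.15, chromosome 2, plus strand). The one nearest the 5′ end (74047445 to 74047494) was negative in the authors' deposited table, with a log ratio of -1.51, a fold of 4.51 and p = 6.5e-05, the smallest p-value among the members. The next feature (74048043 to 74048092) was positive in the authors' deposited table, with a log ratio of 1.46, a fold of 4.31 and p = 0.00042. These neighbours were separated by 548 nt and were of nearly equal size in opposite directions, their log ratios differing by 2.97. The last feature (74101593 to 74101642), a further 53500 nt along, was negative in the authors' deposited table with a log ratio of -0.73, a fold of 2.08 and p = 0.00063, the smallest fold of the 7. No error is available for the difference between neighbours, so it was not tested.

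Features of both signs within a gene were common in the table. Of the 212 genes with exactly 3 listed features in the authors' deposited table, 162 (76.4%) had both signs, and 68 (32.1%) had, like TET3, 1 positive and 2 negative features. Among neighbouring features of a gene whose starts lay within 1000 nt of each other in the authors' deposited table, 396 of 860 pairs had opposite signs, as the first 2 features of TET3 did, and 464 (54.0%) had the same sign.

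UHRF1, the factor that brings DNMT1 to replicating DNA, was positive at both of its features (ENSG00000276043.5, chromosome 19, plus strand). The first (4961506 to 4961555) had in the authors' deposited table a log ratio of 1.03, a fold of 2.80 and p = 0.00037. The second (4961755 to 4961804) had in the authors' deposited table a log ratio of 1.74, a fold of 5.68 and p = 0.00074, and was the largest change among the members. The gap between them was 199 nt, and both lay at the 3′ end of the gene's span, 599 and 350 nt before it. The feature nearer the end had the larger ratio, 2.03 times that of the other in the authors' deposited table, with no error available for this difference. Of the 607 genes with exactly 2 listed features in the authors' deposited table, 199 (32.8%) were positive at both, 122 (20.1%) negative at both and 286 (47.1%) had one of each.

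MBD1, a methyl-CpG binding protein, had a single negative feature. It (ENSG00000141644.17) is placed by the authors' deposited table on chromosome 18, 50268957 to 50269006, minus strand, with a log ratio of -1.07, a fold of 2.93 and p = 0.00049. It lay 2072 nt before the 3′ end of a span of 14883 nt, 85.9% of the way along. Among negative features in the authors' deposited table, 34.9% had a smaller fold.

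The 4 features of TET1, UHRF1 and MBD1 all lay within 5000 nt of the 3′ end of their gene, and those of TET3 lay far from it. Inside the RefSeq span of their named gene lay 4240 features of the authors' deposited table, of which 55.8% were within 5000 nt of its 3′ end, 17.3% within 1000 nt and 16.6% more than 30000 nt away. The 3 TET3 features were 88004, 87406 and 33856 nt from the 3′ end, and the 2 of UHRF1 were the members within 1000 nt. Distances run along the genome and include introns, since exons and UTRs were not annotated here. By sign, 55.9% of the features within 5000 nt of the 3′ end were positive in the authors' deposited table, and 54.0% of those more than 30000 nt away. No other RefSeq gene span covered any of the 7 features.

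**Figure D3:**
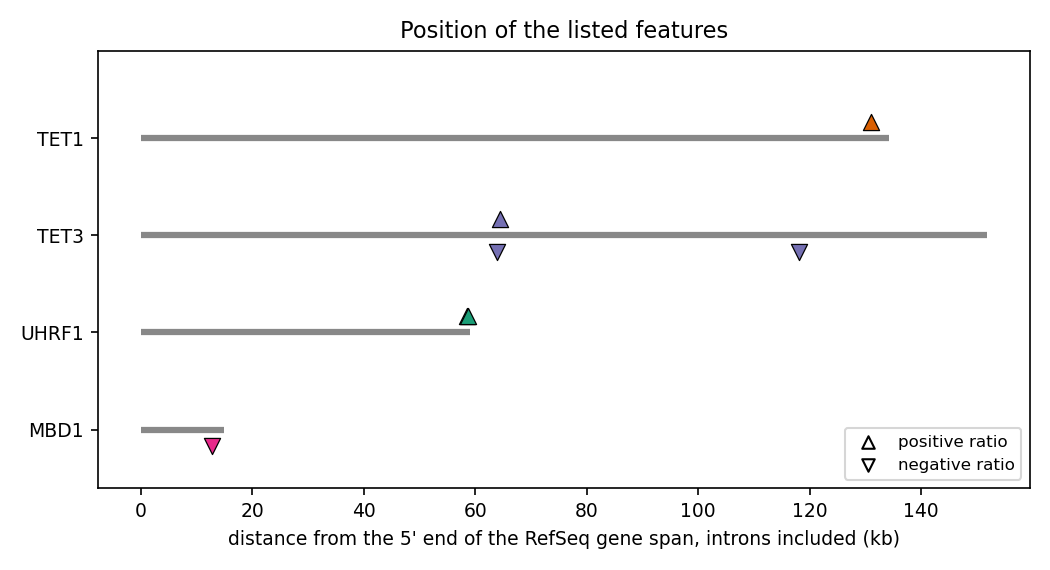
RefSeq span of each gene (grey bar) by distance from its 5′ end in kb, introns included, with listed features as upward triangles where the ratio was positive and downward triangles where it was negative. Features of TET1, UHRF1 and MBD1 sit at the right-hand ends of their bars (the 2 of UHRF1 overlap), whereas a pair of opposite sign sits inside TET3.

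One feature inside the TET3 span carried another gene's name and was singled out after its value was seen. AC073046.1 (ENSG00000235499.1, chromosome 2, 73986003 to 73986052, plus strand) had in the authors' deposited table a positive ratio of 333-fold with p = 3.2e-09, a multiple of 0.5. It lay 1093 nt downstream of an annotated TET3 start, on the same strand, so unspliced TET3 RNA from that start also runs across this position. Whether its reads came from AC073046.1 or from TET3 was not tested, and it is not counted among the members. The spans of TET1, UHRF1 and MBD1 held 0 such features.

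None of the 7 features overlapped the RefSeq promoter windows of their genes, which run from 250 bases before to 50 after an annotated start. The span starts of UHRF1 (4903080) and TET3 (73983631) lay upstream of their first windowed starts (4909501 and 73984910), outside the windows of these genes. The members' windows differ in CG, the dinucleotide whose methylation these proteins copy, read or oxidise. CG reads the same on both strands, and 96.0% of all 35116 windows hold it at least once. Over all windows the median was 14 CG. TET1's 3 windows held 10, 6 and 11, the single MBD1 window 27, TET3's 2 windows 45 and 33, and UHRF1's 3 windows 36, 40 and 46. The CG-poorest window of TET1 (chr10:68600018-68600317) and the CG-richest of TET3 (chr2:73984660-73984959), which is also the one just upstream of the AC073046.1 feature, both plus strand on GRCh38.p14 from RefSeq, are shown as the ends of the range over the windows of these 2 genes, with each CG in capitals.
TET1: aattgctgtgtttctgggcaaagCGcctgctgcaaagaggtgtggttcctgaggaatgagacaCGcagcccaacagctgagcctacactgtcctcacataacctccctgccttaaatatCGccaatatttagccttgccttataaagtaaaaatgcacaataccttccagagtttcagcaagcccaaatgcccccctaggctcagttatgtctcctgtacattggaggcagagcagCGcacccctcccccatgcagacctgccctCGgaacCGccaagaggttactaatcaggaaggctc
TET3: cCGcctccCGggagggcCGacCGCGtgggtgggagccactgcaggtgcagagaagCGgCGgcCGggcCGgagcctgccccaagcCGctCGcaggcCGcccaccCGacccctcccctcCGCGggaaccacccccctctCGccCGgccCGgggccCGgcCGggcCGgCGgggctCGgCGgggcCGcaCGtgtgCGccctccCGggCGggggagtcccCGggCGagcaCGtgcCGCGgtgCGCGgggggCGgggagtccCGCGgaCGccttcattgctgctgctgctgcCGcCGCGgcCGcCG
The m6A values give no measure of DNA methylation at these windows. The sequences of the 7 m6A features themselves were not used here.

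Other genes of the pathway also had features of both signs. Of 58 genes of DNA methylation and decitabine metabolism, 22 had a listed feature, and by the feature with the smallest p-value 10 were positive and 12 negative in the authors' deposited table, against 58.9% positive over all listed genes. Their 31 features were 16 positive and 15 negative in the authors' deposited table, so 51.6% were positive, against 56.3% of all listed features. Their median log ratio was 0.61, against 0.78 over all features. These medians change sign without multiples of 0.5. The list's 24 remaining features were 11 positive and 13 negative in the authors' deposited table, against 45.2% positive over all remaining features. Their median was -0.57, against -0.62 over all remaining features. Without the 4 members, 18 genes remained, 8 positive and 10 negative. Their 24 features were 12 positive and 12 negative, with a median log ratio of 0.05 in the authors' deposited table. The 17 that were not multiples of 0.5 were 7 positive and 10 negative, with a median of -0.62. No listed feature had a log ratio within 0.50 of 0, so 0.05 is the size of no feature. The medians in this paragraph largely follow the sign counts. The roles below were assigned after values were seen, so their counts are a description only. Of the 8 list genes with more than 1 feature in the authors' deposited table, 4 had both signs.

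Among genes that place methylation or guide its copying, 3 of 15 were listed. Besides UHRF1, ZBTB24, a zinc finger protein whose loss causes an immunodeficiency with DNA hypomethylation, was positive at 2.54-fold (p = 0.0024) and, as a multiple of 0.5, at 124-fold according to the authors' deposited table. USP7, a deubiquitinase that binds UHRF1 and DNMT1, was negative at 3.81-fold (p = 0.00097) in the authors' deposited table. DNMT1, DNMT3A and DNMT3B were not among the listed features, and neither was any of the 11 genes of decitabine uptake and metabolism. Only features past a threshold are listed, so absence does not show that a transcript was unchanged, unmethylated or unexpressed. The number of genes tested is unknown, so the counts of listed genes in each role have no share over all genes beside them.

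Oxidation and removal had 6 of 12 genes listed in the authors' deposited table. Of these, 4 were led by a positive and 2 by a negative feature, against 58.9% positive over all listed genes. TET2, the third member of the family, was positive at both of its features, at 116-fold (a multiple of 0.5) and 2.26-fold (p = 0.0035) in the authors' deposited table. OGT, a glycosyltransferase that binds TET proteins, was positive at 2.23-fold (p = 0.00027) in the authors' deposited table. GADD45A, a stress-induced gene linked to demethylation, was positive at 3.32-fold, and MBD4, a DNA glycosylase, negative at 2.17-fold in the authors' deposited table.

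The group of MBD family genes and zinc finger methyl-CpG readers had 5 of 8 genes listed in the authors' deposited table. It was formed by family, so its members need not all read methylated CpG. Of the listed genes, 2 were led by a positive and 3 by a negative feature, against 58.9% positive over all listed genes. MBD5 was negative at 4.29-fold and ZBTB33 (Kaiso), a zinc finger reader, at 3.61-fold in the authors' deposited table. For MBD3, a subunit of the NuRD complex, the authors' deposited table gives 1.99-fold on the positive and 1.67-fold on the negative side, and for MBD6 a positive 40.5-fold that is a multiple of 0.5.

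The CXXC zinc finger genes, whose products bind unmethylated CpG, had 4 of 6 listed in the authors' deposited table, 0 led by a positive and 4 by a negative feature, against 58.9% positive over all listed genes. KDM2A, a histone demethylase, was negative at 2.52-fold and positive at 1.84-fold, and its relative KDM2B negative at 123-fold (a multiple of 0.5) and at 1.86-fold, per the authors' deposited table. For CXXC5 the authors' deposited table gives a negative 2.01-fold, and for FBXL19 a negative 1.96-fold. TET1, which was positive, TET3, which had both signs, and MBD1, which was negative, also carry a CXXC domain but were placed in other roles. KMT2A, which carries one too, was not on the list. The group is therefore not every listed gene with this domain.

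Partners in silencing had 4 of 6 genes listed, 2 positive and 2 negative in the authors' deposited table, against 58.9% positive over all listed genes. SETDB1, a histone H3 methyltransferase that MBD1 binds, was negative at 2.01-fold in the authors' deposited table. ATF7IP, which joins MBD1 and SETDB1, is listed in the authors' deposited table at 179-fold on the positive and 25.5-fold on the negative side, both multiples of 0.5. EHMT1 was positive at 210-fold, also a multiple of 0.5, and SMCHD1, a protein of the inactive X chromosome, at 9.07-fold in the authors' deposited table.

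**Figure D4:**
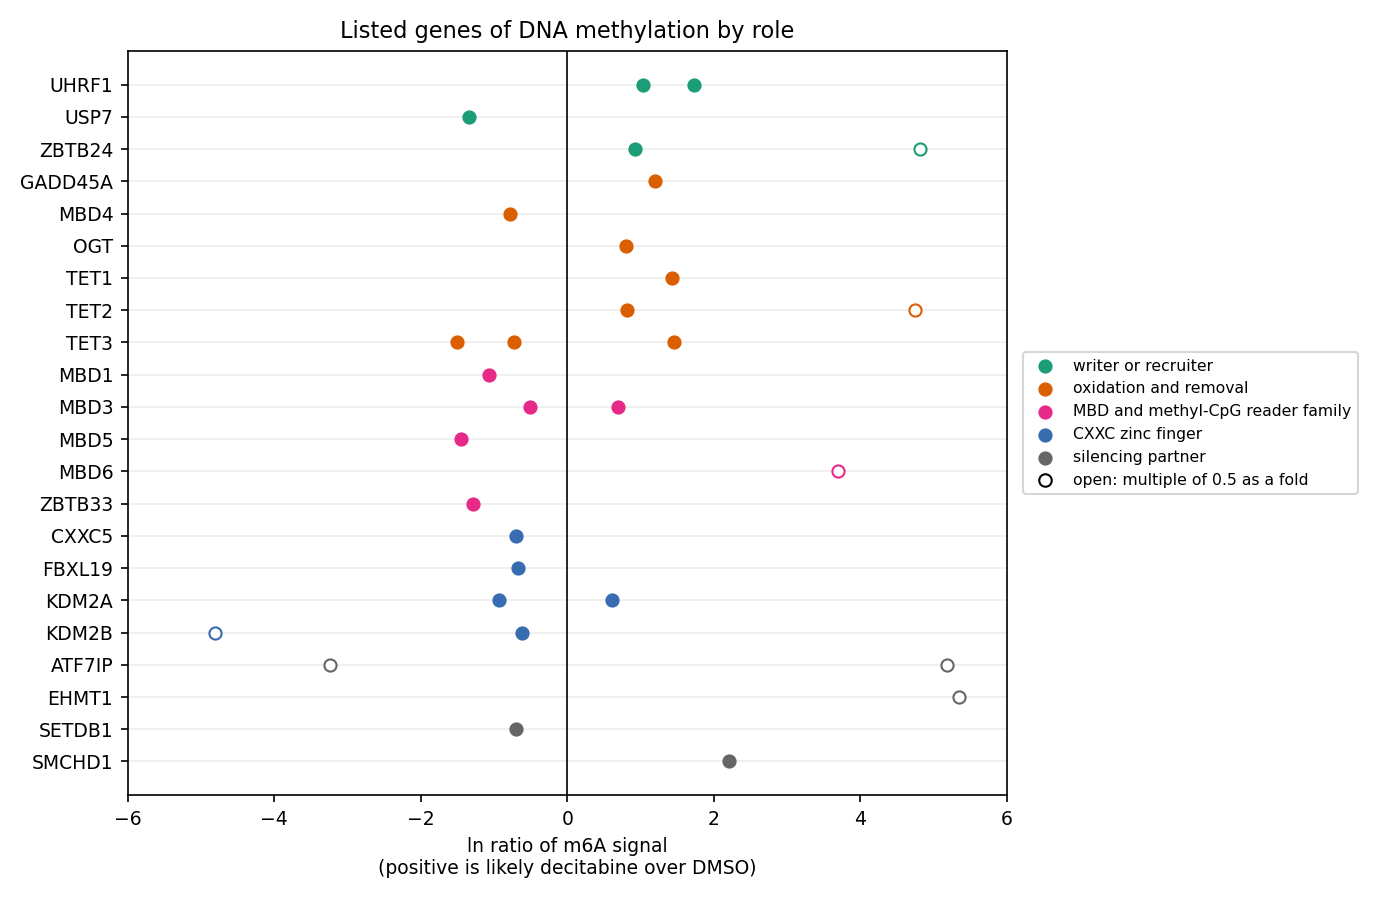
Natural log ratio of m6A signal (horizontal axis) for every listed feature of the 22 listed genes, grouped by role and coloured by it; open circles are ratios that are multiples of 0.5 as a fold. Features lie on both sides of 0, 16 positive and 15 negative, and open circles supply the outermost points on both sides.

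The genes most like each member were taken as those with the same number of listed features and the nearest mean log ratio. Signs of single features were not matched. For TET1 (mean 1.43, over 2166 other genes with 1 feature) these were TXNDC11, ZBTB40 and PWWP2B in the authors' deposited table, at 1.43, 1.43 and 1.44. For MBD1 (-1.07) they were HDHD3, MTIF3 and AMOTL1 in the authors' deposited table, at -1.07, -1.08 and -1.07. For UHRF1 (mean 1.38 over 2 features, 606 other genes) they were THEMIS2, HMOX2 and HNRNPLL in the authors' deposited table, all at 1.38. Of these, only THEMIS2 was, like UHRF1, positive at both features, with log ratios of 1.28 and 1.49. HMOX2 (-1.83 and 4.60) and HNRNPLL (-1.79 and 4.54) each had features of opposite sign, and only their means were close to that of UHRF1. For TET3 (mean -0.26 over 3 features, 211 other genes) JDP2, Z83844.1 and AC008764.1 came nearest in the authors' deposited table, at -0.26, -0.25 and -0.24. The TET3 mean is the size of no feature, since its log ratios of -1.51, 1.46 and -0.73 partly cancel. Closeness to it therefore does not mean a shared small decrease.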

How the data were processed

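Per the labels' protocols, an anti-m6A antibody (5 µg) was used on 2 µg of fragmented total RNA per sample, and input and immunoprecipitate libraries were read as single 50-base reads. The submitters' processing notes name STAR 2.7.3a and hg38. For the feature caller, the test, the input correction and how replicates were combined, the sources used here say nothing. The only file was the table in which the authors deposited their own comparison. The authors' log ratio has no stated base; natural log was assumed, since the resulting fold was often a multiple of 0.5, against 0 features under base 2. Whether the deposited p-value was adjusted is unstated. The smallest listed fold was 1.65 and the largest p-value 0.0045, so only features past a threshold are listed and the number tested is unknown. The planned edgeR fit needs counts per library and was not run.

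Positions are as deposited, read as 1-based with both ends included, and gene spans came from RefSeq GRCh38.p14, the same primary assembly. Totals include the few pseudoautosomal features listed on both sex chromosomes; position and neighbour counts leave out chromosome Y. No test was run, since the ratios are given without an error. The text names every member feature, every listed gene of the DNA methylation list (1 gene of it is not reported here and was left out of its counts), and 3 genes nearest each member. The members and lists were chosen with earlier results of these data known, and the roles after values were seen. Python 3.11.15, pandas 2.3.3, numpy 2.4.6 and matplotlib 3.10.9 were used; the search for whole-number ratios was tested on simulated data.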

Additional observations from a re-analysis of the deposited data

How the results depend on the processing

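Limits were counted rather than tested, since the table holds no value per library. The 4 positive and 3 negative member features were all kept with a p-value of 0.001 or less and without multiples of 0.5. With a p-value of 0.0001 or less, 0 positive and 1 negative feature remained (TET3). With a fold of at least 3 or of at least 4, 3 positive and 1 negative remained. The share positive over all listed features was not counted at these cuts, so no lean in sign is read from these counts. With 1 feature per gene, by smallest p-value or by largest ratio, 2 genes were positive and 2 negative. With the opposite orientation, an alternative chosen after seeing the data, 3 would be positive and 4 negative. Read as base 2 instead of a natural log, the member folds would run from 1.66 to 3.33. The DNA methylation list had 11 positive and 11 negative genes by largest ratio or by median, and synonyms added 0 genes. The share of neighbours with the same sign was 53.4% within 500 nt, 54.6% within 2000 nt and 53.1% without multiples of 0.5 (alternatives also added later). No m6A motif search was run, because the sequences of the features were not used here, and no count fit or leave-one-out, because the table holds no value per library. No paired analysis was possible because the table gives no value per library. The depth behind each ratio is unknown.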
